A study of Mus musculus with 33 samples.

Results

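A set of 10 genes of the actin cytoskeleton and the contractile apparatus was followed through RNA-seq of mouse embryonic stem cells (ESCs) that lack members of the heterochromatin protein 1 (HP1) family or the H3K9 methyltransferase SETDB1. The genes were *Acta2*, *Actg2*, *Tagln*, *Cnn1*, *Myl9*, *Tpm1*, *Tpm2*, *Actn1*, *Vcl* and *Srf*, picked by name out of 55487 genes listed in every deposited table. They were listed together because they are known targets of serum response factor (SRF), and because a low level of *Acta2* in *Hp1α/γΔ/Δ* ESCs had already been seen in these libraries. The values of *Hp1α/γΔ/Δ* ESCs against their control therefore chose the set and are given below as a description, with no test.

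The data were 33 libraries of C57BL/6 ESCs in 11 groups of 3, and p-values measure the spread between the 3 biological replicates of each group. Wild-type ESCs (labelled WT) were deposited as 2 sets, called here wild-type set A and wild-type set B. Set A stood beside *Hp1αΔ/Δ*, *Hp1βΔ/Δ*, *Hp1γΔ/Δ*, *Hp1α/βΔ/Δ* and *Hp1α/β/γΔ/Δ* cells (labelled HP1{alpha}KO, HP1{beta}KO, HP1{gamma}KO, HP1{beta}/{alpha}DKO and HP1{beta}/{gamma}/{alpha}TKO). Set B stood beside *Hp1β/γΔ/Δ* and *Hp1α/γΔ/Δ* ESCs (HP1{beta}/{gamma}DKO and HP1{gamma}/{alpha}DKO). *Setdb1Δ/Δ* cells (SETDB1KO), in which Cre had removed part of the gene, had their own control with floxed alleles, *Setdb1F/F* (SETDB1FF). The single and double mutants were constitutive knockout lines made with CRISPR/Cas9, and the number of clones behind a genotype is not given in the sources used here. *Hp1α/β/γΔ/Δ* cells came from ESCs without *Hp1α* and *Hp1β* and with floxed *Hp1γ*, collected after transfection of Cre, so that they share the loss of both genes with *Hp1α/βΔ/Δ* ESCs. The study's text describes the control of the triple mutant as these parental cells with an empty vector, whereas the labels give set A as WT, and set A had 489.6 CPM of *Cbx5* and 443.4 CPM of *Cbx1* by median against 200.8 and 97.0 CPM in *Hp1α/βΔ/Δ* ESCs. For the triple mutant against set A, the loss of *Hp1γ* and that of *Hp1α* and *Hp1β* thus cannot be told apart. Cells were grown on feeder layers of mouse embryonic fibroblasts, which themselves make contractile proteins. Per the study's methods most feeders were left behind on gelatin dishes, to which they attach first, before ESCs were used.

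SRF is a transcription factor of the MADS-box family that binds the CArG box. With the myocardin-related cofactors MRTF-A and MRTF-B, which are held in the cytoplasm by monomeric actin, it drives genes of the actin cytoskeleton, and with the ETS proteins ELK1, ELK3 and ELK4 it drives immediate-early genes such as *Fos* and *Egr1*. In smooth muscle and myofibroblasts *Acta2*, *Tagln* and *Cnn1* are classical markers, whereas *Tpm1*, *Actn1* and *Vcl* serve stress fibres and focal adhesions in many cell types, ESCs among them. No library here alters *Srf*, so that the link to SRF comes from general knowledge and not from these data.

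The promoters were searched for the CArG box because SRF binds it. RefSeq start sites were available for 8 of 10 genes (GRCm38.p6, 250 bases before to 50 bases after the start), and *Actg2* and *Tagln* were not in that table. The strict CArG box, with 2 C, 6 positions of A or T, and 2 G, has the same form on both strands and no other motif was searched. It was present in the promoters of *Srf*, *Myl9* and *Vcl*, and in 1.63% of all 32851 promoters of that length. A relaxed box with 1 C or G among the 6 inner positions was also found in *Myl9* and in *Acta2*, and 9.98% of all promoters held a relaxed or strict box. The stretches with a box are shown because these are the letters that SRF is known to recognise, with the box in capitals and the gene's strand read 5′ to 3′. *Srf* (chr17:46556200-46556259, minus strand) holds boxes that begin at −82 and −62 relative to the start, *Myl9* (chr2:156775288-156775389, plus strand) at −161 and −99, and *Vcl* (chr14:20929156-20929195, plus strand) at −227. The boxes of *Acta2* begin at −84 (chr19:34255438-34255467) and −34 (chr19:34255388-34255417), both on the minus strand. The stretch that spans both overlaps an exon of the gene in GENCODE M21, where the gene starts further upstream.
Srf: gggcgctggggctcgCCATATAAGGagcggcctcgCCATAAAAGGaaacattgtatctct
Myl9: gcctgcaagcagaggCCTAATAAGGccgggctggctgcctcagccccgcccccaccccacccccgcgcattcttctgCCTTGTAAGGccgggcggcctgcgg
Vcl: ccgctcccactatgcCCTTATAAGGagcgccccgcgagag
Acta2, upstream box: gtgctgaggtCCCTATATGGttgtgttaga
Acta2, downstream box: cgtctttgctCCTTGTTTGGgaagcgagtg
No box of either kind lay in the windows of *Cnn1*, *Tpm1*, *Tpm2* and *Actn1*, which says only that these letters were not within these 300 bases.

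Levels of a gene were compared between groups in CPM (counts scaled to a common library size) after TMM scaling over all 33 libraries, and levels between genes only in the deposited TPM, which are set per length. For *Srf*, *Tpm1*, *Tagln*, *Cnn1*, *Myl9*, *Vcl* and *Actn1* the TPM of some groups are also given beside the CPM, without a test. By median TPM the genes fell into an abundant and a scarce class. In wild-type set A *Tpm1* had 220 TPM and *Actn1* 111 TPM, followed by *Tpm2* with 63.1, *Tagln* with 39.8, *Vcl* with 32.1, *Srf* with 31.7 and *Myl9* with 25.8 TPM. *Cnn1* had 5.47 TPM, *Acta2* 3.39 and *Actg2* 0.17 TPM. Over the 11 groups the median ran from 41.4 to 290 TPM for *Tpm1* and from 68.3 to 136 TPM for *Actn1*, so that these never became scarce. It ran from 0 to 6.72 TPM for *Acta2*, from 0.55 to 106 TPM for *Tagln* and from 0.42 to 57.7 TPM for *Myl9*, whose lowest values all lay in the *Setdb1* libraries.

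**Figure D1:**
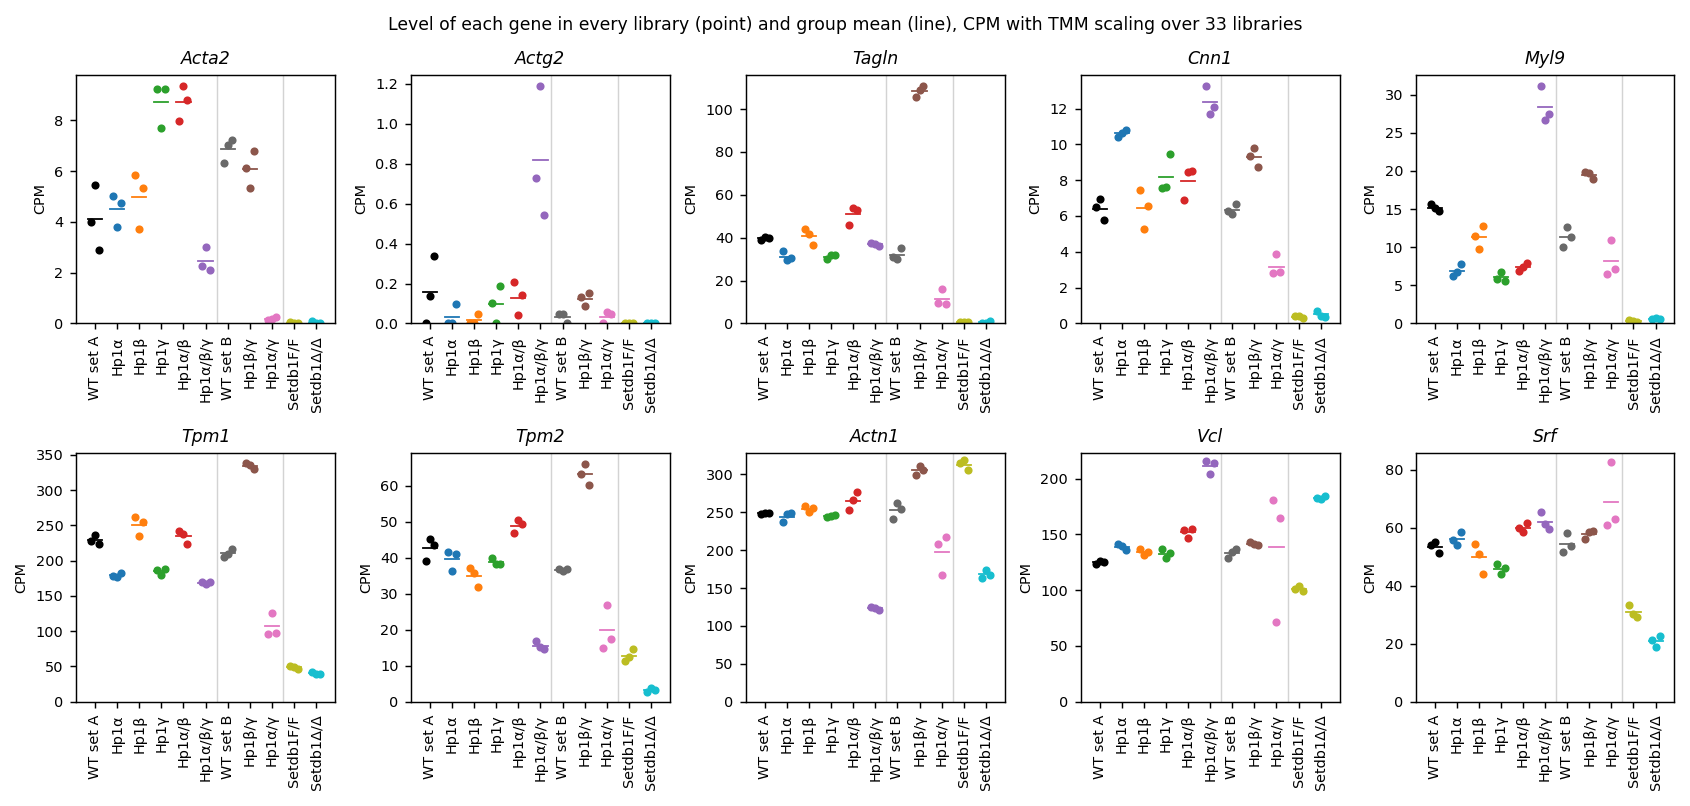
CPM of each of the 10 genes (one panel each, linear axes from 0) in the 3 libraries of each group (points) with the group mean (short line). Grey vertical lines separate wild-type set A and its mutants, wild-type set B and its mutants, and the *Setdb1* pair. *Tagln* stands highest in *Hp1β/γΔ/Δ* ESCs, at 105.6 to 110.6 CPM, and *Acta2*, *Tagln*, *Cnn1* and *Myl9* are near 0 in both *Setdb1* groups.

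Some facts of the libraries touch all results. Total counts per library ran from 17330936 to 25743149. Median *Cbx5* (HP1α) was 178.8 to 269.4 CPM in the 4 genotypes without *Hp1α* and 406.3 to 541.3 CPM in the others. *Cbx1* (HP1β) was 43.5 to 102 CPM where it was deleted against 113.5 to 460.3 CPM elsewhere. *Cbx3* (HP1γ) was 63.2 to 84.6 CPM where it was deleted against 74.9 to 211 CPM elsewhere. *Setdb1* was 68.5 CPM in *Setdb1Δ/Δ* cells and 133 CPM in *Setdb1F/F* ESCs. One library stood apart, *Hp1α/γΔ/Δ* replicate 2, with a Pearson correlation of 0.958 and 0.961 to its replicates (log2 CPM across genes), while these correlated at 0.997. Sets A, B and *Setdb1* come from separate tables, and a difference between sets and one between their genotypes cannot be told apart.

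Markers of other cells were measured beside the genes, since feeder fibroblasts make much *Acta2* and *Tagln*. Of 16 fibroblast markers, *Fap* was at 0 in every group, and *Postn* did not pass 0.464 CPM in any library. The summed level of the 16 markers had a median of 38.6 CPM in set A (range 37.6 to 41.3), 61.8 CPM in set B (55.6 to 62.8) and 20.5 CPM in *Hp1α/γΔ/Δ* ESCs (17.5 to 22.7). It was 30.3 CPM in *Hp1α/β/γΔ/Δ* cells (29.4 to 33.8), 21.3 CPM in *Setdb1F/F* (21.2 to 22.0) and 18.1 CPM in *Setdb1Δ/Δ* (17.8 to 18.3), and 39.0 to 48.0 CPM by median in the other 5 groups. Between 2 and 8 of the 16 markers exceeded 1 CPM in a group. A few genes made most of the sum, and they did not move together. By mean, *Fbn1* was at 8.02 CPM in set A and 15.4 CPM in *Hp1α/β/γΔ/Δ* cells, whereas *Thy1* was at 14.0 and 1.28 CPM. In *Setdb1F/F* ESCs *Fbn1* was at 10.1 CPM and *Thy1* at 5.01 CPM, but *Col1a2* at 0.033 CPM. Like sums can thus hold different markers. Pluripotency markers (*Pou5f1*, *Nanog*, *Sox2*, *Zfp42* and *Esrrb*) summed to 1041 to 4047 CPM and all 5 exceeded 1 CPM in every group. In *Hp1α/β/γΔ/Δ* cells *Pou5f1* (436.5 against 956.8 CPM), *Nanog* (72.1 against 207.9 CPM) and *Sox2* (115.4 against 355.3 CPM) stood below set A by median. The summed levels were 1.81 to 18.1 CPM for 5 primitive endoderm markers, 1.75 to 22.5 CPM for 7 markers of cardiac and skeletal muscle and 24.6 to 120 CPM for 3 endothelial markers. In bulk RNA, fewer cells of a type and less RNA per cell cannot be told apart.

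*Acta2* encodes smooth muscle α-actin (ENSMUSG00000035783, chromosome 19, 34241090 to 34255590, minus strand, GRCm38). In *Hp1α/γΔ/Δ* ESCs its libraries held 3, 3 and 5 counts, or 0.147, 0.165 and 0.233 CPM. In wild-type set B they held 128, 157 and 158 counts, or 6.32, 7.03 and 7.23 CPM. The 3 mutant libraries thus lay far below all control libraries. The ratio of the summed counts, 11 against 443 and scaled by library size, was 0.0266 with an exact 95% interval of 0.0132 to 0.0481 that covers counting error only, and the fitted log2 fold change was −5.22. This is the contrast that chose the gene. Of all 15841 genes that passed the filter there, 17.2% were lower and 7.56% higher by a log2 fold change over 1. Against set A, with 86, 118 and 60 counts, the ratio was 0.0443 (0.0218 to 0.0805). Without replicate 2, the library that stood apart, the log2 fold change was −5.13.

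Other smooth muscle genes were also low in *Hp1α/γΔ/Δ* ESCs, though much less so. *Tagln* encodes transgelin, an actin-binding protein of smooth muscle (chromosome 9, 45929619 to 45936058, minus strand). It stood at 9.443, 15.89 and 9.001 CPM against 31.1, 29.8 and 35.4 CPM in set B, a log2 fold change of −1.54. *Cnn1*, basic calponin (chromosome 9, 22099216 to 22109630, plus strand), stood at 2.79, 3.85 and 2.89 CPM against 6.27, 6.09 and 6.68 CPM, a log2 fold change of −1.05. For both genes the groups did not overlap. *Tpm1* and *Tpm2* encode tropomyosins, which wind along actin filaments (chromosome 9, 67022590 to 67049406, and chromosome 4, 43514711 to 43523765, both minus strand). *Tpm1* was at 96.5 to 126.3 CPM against 205 to 216.9 CPM (log2 −1.03), and *Tpm2* at 15.02 to 27 CPM against 36.2 to 36.9 CPM (log2 −0.94).

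The remaining genes differed less from set B. *Myl9*, the regulatory light chain of smooth muscle and nonmuscle myosin (chromosome 2, 156775420 to 156781658, plus strand), was at 6.46, 11 and 7.09 CPM against 9.97, 12.7 and 11.3 CPM, so that the groups overlapped, and against set A its log2 fold change was −0.93. The overlap came from replicate 2, the library that stood apart. By deposited TPM *Myl9* did not overlap, at 9.59 to 10.7 TPM against 17.4 to 20.5 TPM in set B. *Actn1*, α-actinin that crosslinks actin filaments (chromosome 12, 80167547 to 80260371, minus strand), was at 167.1 to 217.7 CPM against 241.5 to 261.8 CPM, which did not overlap, with a log2 fold change of −0.39. *Vcl*, vinculin of focal adhesions (chromosome 14, 20929398 to 21033676, plus strand), was at 180.6, 71.8 and 164.4 CPM against 128.8 to 137.2 CPM. Replicate 2 was thus lower than every control library and the other replicates higher, and without it the log2 fold change was 0.37 in place of 0.03. *Srf* itself (chromosome 17, 46548329 to 46556175, minus strand) was at 61.1, 82.7 and 63.2 CPM against 51.8, 58.1 and 53.7 CPM, a log2 fold change of 0.29. By deposited TPM its median was lower, at 24.8 TPM (23.0 to 26.8) against 29.7 TPM (24.0 to 30.1) in set B. Of the 9 genes that passed the filter, 4 were lower and 0 higher by a log2 fold change over 1, in the contrast that chose the set and where 17.2% of all genes were lower and 7.56% higher.

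Of the 10 fibroblast markers that passed the filter, 8 were lower and 1 higher than in set B by a log2 fold change over 1. The log2 fold change was −2.19 for *Col1a1*, −5.33 for *Col1a2*, −3.88 for *Col3a1*, −4.51 for *Dcn* and −1.78 for *Thy1*, and *Postn* was at 0 in all 3 *Hp1α/γΔ/Δ* libraries. *Col6a3* was higher, at 5.82 against 0.730 CPM (log2 2.96), and *Cdh11* was at −0.16. The 7 markers of cardiac and skeletal muscle summed to 3.67 CPM by median against 10.3 CPM in set B. Their part in the level of *Acta2* was not tested. Over the 11 group means of log2(CPM + 1), which include groups of separate tables, the correlation with the summed fibroblast markers was 0.97 for *Acta2*, 0.87 for *Tpm1*, 0.85 for *Tpm2*, 0.83 for *Tagln*, 0.77 for *Cnn1* and 0.61 for *Myl9*. It was 0.53 for *Srf*, 0.41 for *Actn1*, 0.061 for *Actg2* and −0.13 for *Vcl*. Over the 9 groups without the *Setdb1* pair it was 0.94 for *Acta2*, 0.76 for *Tpm1*, 0.72 for *Tpm2* and 0.65 for *Tagln*, but −0.077 for *Myl9* and −0.68 for *Srf*. The 11 and the 9 groups both include *Hp1α/γΔ/Δ* ESCs, whose low *Acta2* chose the set. The correlations are thus a description that depends on that choice, and none was computed without that group.

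**Figure D2:**
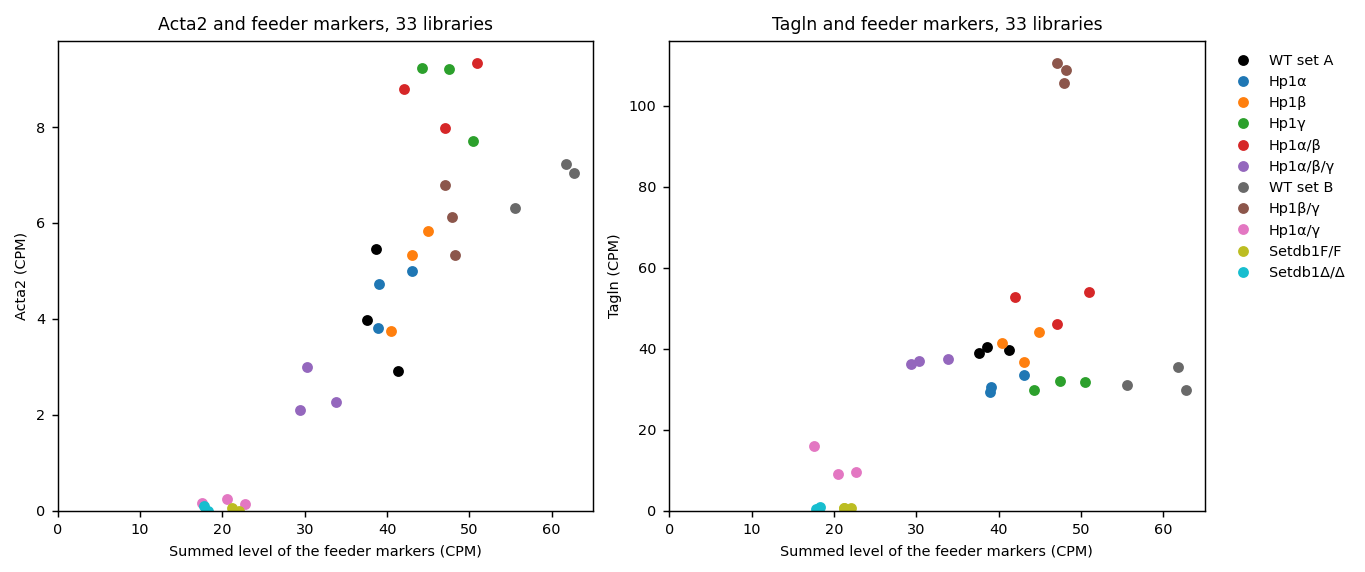
*Acta2* (left) and *Tagln* (right) in CPM against the summed CPM of 16 feeder fibroblast markers, 1 point for each of 33 libraries, coloured by group. *Hp1α/γΔ/Δ* and *Setdb1* libraries lie at the lower left in both panels. The 3 *Hp1β/γΔ/Δ* libraries lie at 105.6 to 110.6 CPM of *Tagln* with 47.1 to 48.2 CPM of summed markers, where other groups have less *Tagln*.

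Across all groups *Acta2* was highest in *Hp1γΔ/Δ* (9.23, 7.72 and 9.21 CPM) and *Hp1α/βΔ/Δ* ESCs (7.99, 9.34 and 8.79 CPM), which overlapped each other. Set B followed at 6.32 to 7.23 CPM, then *Hp1β/γΔ/Δ* (5.32 to 6.80), *Hp1βΔ/Δ* (3.74 to 5.83), *Hp1αΔ/Δ* (3.80 to 4.999) and set A (2.91 to 5.47), of which each overlapped its neighbours in this order. *Hp1α/β/γΔ/Δ* cells had 2.09 to 2.995 CPM and overlapped set A. In *Setdb1F/F* ESCs the libraries had 1, 0 and 0 counts and in *Setdb1Δ/Δ* cells 2, 0 and 0, where a floor of 3 counts per library stands for 0.142 to 0.177 CPM. *Actg2*, smooth muscle γ-actin (chromosome 6, 83512905 to 83536265, minus strand), did not exceed 7 counts in any library outside *Hp1α/β/γΔ/Δ* cells. The coding sequences of *Acta2* and *Actg2* are 84.3% identical, and 81.7% to 85.5% identical to those of *Acta1*, *Actc1*, *Actb* and *Actg1*, so that the division of reads between actin genes rests on the authors' estimate.

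The comparisons below were tested with edgeR's quasi-likelihood test, and a gene is called, or said to rise or fall, where its p after Benjamini-Hochberg adjustment was under 0.05 and its log2 fold change passed 1 in either direction. In *Hp1γΔ/Δ* ESCs, *Acta2* rose and *Myl9* fell against set A. *Acta2* had 8.72 ± 0.87 CPM (SD, n = 3) against 4.12 ± 1.28 CPM in set A, a log2 fold change of 1.07 (SE 0.18, adjusted p = 8.54e-05). *Myl9* had 6.06 ± 0.59 CPM against 15.1 ± 0.476 CPM, a log2 fold change of −1.32 (SE 0.11, adjusted p = 1.42e-08). No library of either group overlapped the other for these genes. Of all genes 2.04% were called higher and 3.55% lower, and of the 9 tested here 1 was called in each direction. *Tagln* (log2 −0.35), *Tpm1* (−0.32) and *Srf* (−0.23) were lower and *Cnn1* (0.35) higher with an adjusted p under 0.05 but below the fold threshold, where 46.7% of all genes passed in either direction with the fold left out.

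*Hp1αΔ/Δ* and *Hp1α/βΔ/Δ* ESCs had a lower *Myl9* too. In *Hp1αΔ/Δ* ESCs its libraries were at 6.16, 6.76 and 7.78 CPM against 15.6, 15.1 and 14.7 CPM in set A, and the log2 fold change was −1.14 (SE 0.11, adjusted p = 5.57e-08). It was the only one of 9 tested genes called there, while 1.56% of all genes were called higher and 3.31% lower. *Cnn1* was higher at 10.4 to 10.8 CPM against 5.77 to 6.95 CPM, with a log2 fold change of 0.72 that stayed below the threshold (adjusted p = 5.26e-05). *Vcl* (log2 0.15) was higher and *Tagln* (−0.36) and *Tpm1* (−0.36) lower at an adjusted p under 0.05, also below the fold threshold. With the fold left out 45% of all genes passed in either direction. In *Hp1α/βΔ/Δ* ESCs *Myl9* was at 6.85, 7.34 and 7.90 CPM (log2 −1.04, SE 0.10, adjusted p = 2.96e-07) and *Acta2* rose by 1.08 on the log2 scale (SE 0.18, adjusted p = 0.00012), with 2.96% of all genes called higher and 5.19% lower. *Vcl* (0.28), *Tagln* (0.36), *Tpm2* (0.20) and *Srf* (0.17) were also higher there at an adjusted p under 0.05, below the fold threshold. With the fold left out 43.4% of all genes passed in either direction.

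*Hp1βΔ/Δ* ESCs showed the least. None of the 9 tested genes was called by edgeR, and 2 had an adjusted p under 0.05 without the fold threshold, where 51.1% of all genes passed in either direction, *Myl9* (log2 −0.44, 11.3 against 15.1 CPM) and *Tpm2* (log2 −0.30, 34.97 against 42.56 CPM). At an unadjusted p under 0.05 there were 3, and DESeq2 called none either. Among all genes 2.75% were called higher and 6.36% lower.

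These calls depended on which wild-type set served as control. Against set B in place of set A, no gene of the set was called in *Hp1αΔ/Δ*, *Hp1γΔ/Δ* or *Hp1α/βΔ/Δ* ESCs. *Myl9* stayed lower, with a log2 fold change of −0.71 in *Hp1αΔ/Δ* (adjusted p = 0.00031), −0.89 in *Hp1γΔ/Δ* (adjusted p = 6.03e-05) and −0.62 in *Hp1α/βΔ/Δ* ESCs (adjusted p = 0.000851). *Acta2* was 0.35 higher in *Hp1γΔ/Δ* (adjusted p = 0.0308) and 0.34 higher in *Hp1α/βΔ/Δ* ESCs (adjusted p = 0.0344). Set B itself held more *Acta2* than set A (log2 0.74, 6.86 ± 0.48 against 4.12 ± 1.28 CPM) and less *Myl9* (log2 −0.41, 11.3 ± 1.35 against 15.1 ± 0.476 CPM), given without a test. Between the sets 2.94% of genes were higher and 3.39% lower by a log2 fold change over 1. *Actn1*, *Cnn1*, *Srf* and *Vcl* differed between the sets by at most 0.10 on the log2 scale. The fibroblast markers *Col1a1* and *Col1a2* were higher in set B (log2 1.34 and 2.13), as well as in *Hp1γΔ/Δ* (1.27 and 1.93) and *Hp1α/βΔ/Δ* ESCs (1.81 and 1.87) against set A. Over the whole list 3 of 9 markers rose and 1 fell (*Dcn*, −1.16) in *Hp1γΔ/Δ*, and 4 of 10 rose and 3 fell (*Col5a2*, −2.71, *Dcn*, −1.78, and *Fbn1*, −1.02) in *Hp1α/βΔ/Δ* ESCs, while in set B 2 of 9 were higher and 0 lower by a log2 fold change over 1. Their part in the rise of *Acta2* was not tested. *Col1a2* also rose in *Hp1αΔ/Δ* ESCs (log2 1.43) and *Col1a1* in *Hp1βΔ/Δ* ESCs (log2 1.53), where *Acta2* was at 0.12 (adjusted p = 0.671) and 0.24 (adjusted p = 0.428). One library of set A, replicate 3, held the lowest *Acta2* of the set, and without it the log2 fold change was 0.88 both in *Hp1γΔ/Δ* and in *Hp1α/βΔ/Δ* ESCs, below the threshold.

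**Figure D3:**
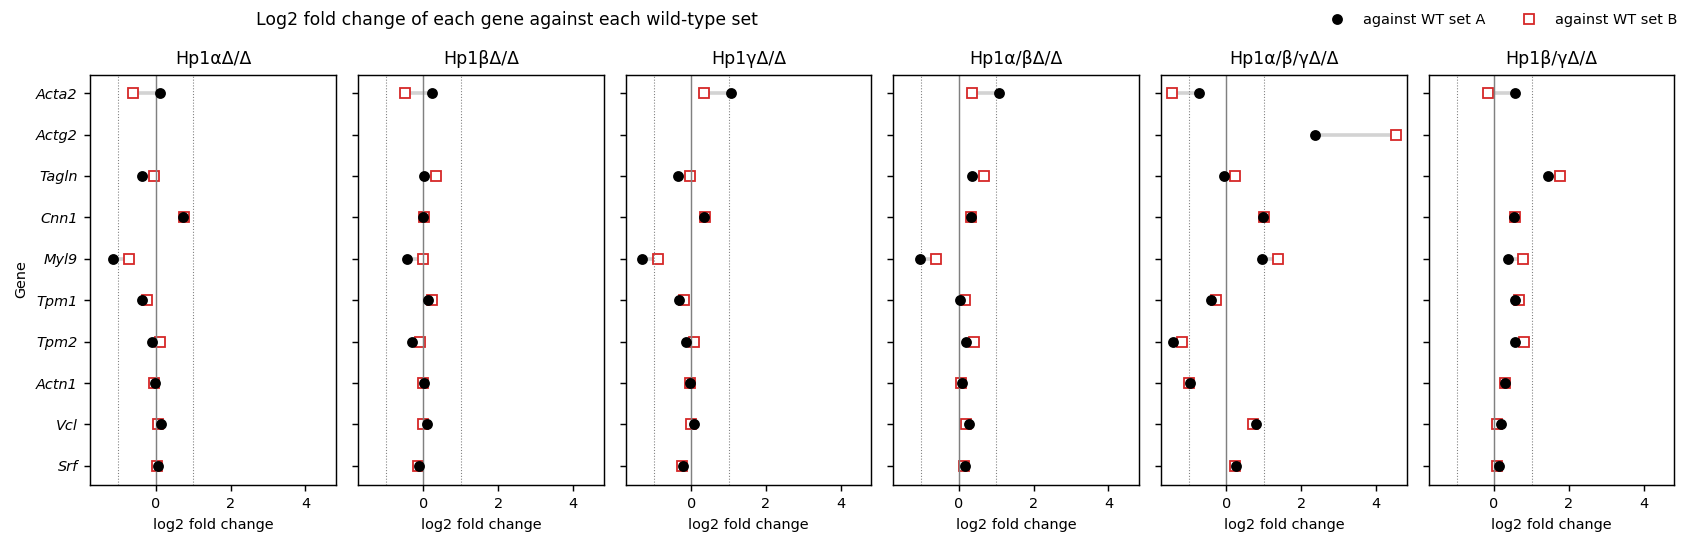
Fitted log2 fold change of each gene in 6 Hp1 mutants against wild-type set A (black circles) and set B (open red squares), with grey lines between both fits and dotted lines at a log2 fold change of −1 and 1. *Acta2* and *Myl9* cross the dotted lines with the choice of set in *Hp1γΔ/Δ* and *Hp1α/βΔ/Δ* ESCs, while *Tagln* in *Hp1β/γΔ/Δ* ESCs stays to the right of 1 under both, at 1.45 and 1.76. *Actg2* passed the filter under both sets in *Hp1α/β/γΔ/Δ* cells only.

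*Hp1β/γΔ/Δ* ESCs had the highest *Tagln* of all groups. Its libraries were at 105.6, 109 and 110.6 CPM against 31.1, 29.8 and 35.4 CPM in set B, and no other group passed 54.0 CPM. The log2 fold change was 1.76 (SE 0.061, adjusted p = 3.1e-12), a rise of 3.38-fold. Set B is also the control of the contrast that chose the set of genes, so the value against set A is given beside it, a log2 fold change of 1.45 (adjusted p = 1.93e-15). *Tagln* was the only one of 9 tested genes called, with 7.32% of all genes called higher and 4.54% lower. The gene shares 1241 exonic bases with *Gm48529* and 108 with *Pcsk7*, both on the opposite strand, and whether the counting used strand is not given in the sources used here.

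The tropomyosins and *Myl9* stood higher in *Hp1β/γΔ/Δ* ESCs without passing the fold threshold. *Tpm2* was at 63.2, 66.0 and 60.3 CPM against 36.9, 36.2 and 36.8 CPM (log2 0.79, SE 0.052, adjusted p = 6.43e-09). *Myl9* was at 19.8, 19.7 and 19.0 CPM against 9.97, 12.7 and 11.3 CPM (log2 0.78, SE 0.091, adjusted p = 3.93e-06). *Tpm1* was at 338.1, 336.1 and 330.5 CPM against 205, 209.4 and 216.9 CPM (log2 0.67, SE 0.042, adjusted p = 3.66e-09). In each of these genes all 3 mutant libraries lay above all control libraries. *Cnn1* (log2 0.55) and *Actn1* (log2 0.28) were higher as well, so that 6 of 9 genes were higher and 0 lower at an adjusted p under 0.05 alone, where 51.7% of all genes passed in either direction. *Acta2* was not among them (log2 −0.17, SE 0.13, adjusted p = 0.292), nor were *Vcl* (0.09) and *Srf* (0.09). The fibroblast markers *Col1a1* (log2 −0.48), *Col1a2* (−0.92) and *Thy1* (−0.81) lay below set B in these libraries and *Col6a3* rose (log2 2.58, 4.397 against 0.730 CPM, adjusted p = 3.65e-07), the only call among 11 fibroblast markers. The 3 endothelial markers summed to 25.7 CPM by median against 80.2 CPM. Their part in the level of *Tagln* was not tested.

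In *Hp1α/β/γΔ/Δ* cells the genes moved apart. *Actg2* rose and *Tpm2* fell against set A, while *Cnn1*, *Myl9* and *Vcl* were higher and *Actn1*, *Acta2* and *Tpm1* lower below the fold threshold. By deposited TPM *Tpm1* was instead higher, at 229 to 232 TPM against 219 to 226 TPM in set A. *Actg2* had 17, 25 and 14 counts (0.729, 1.19 and 0.542 CPM) against 0, 3 and 7 in set A, a fitted log2 fold change of 2.36 (SE 0.65, adjusted p = 0.00262). It passed the filter only in comparisons with the triple mutant, through the group in which it was high. Over 13 alternatives, a filter at 1 count among them, the log2 fold change was 1.76 to 4.52 with an adjusted p up to 0.0235. The ratio of summed counts was 5.09, with an exact 95% interval of 2.57 to 11.2 for counting error only, and against the 1, 1 and 0 counts of set B it was 25.7 (6.79 to 217). *Tpm2* was at 16.8, 15.2 and 14.6 CPM against 39.0, 45.3 and 43.5 CPM, a log2 fold change of −1.42 (SE 0.076, adjusted p = 1.56e-12). Of 10 tested genes 1 was thus called in each direction, where 25.1% of all genes were called higher and 17.1% lower, so that the share of the set was below that of all genes.

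Several genes of the set were close to the threshold in *Hp1α/β/γΔ/Δ* cells. *Cnn1* was at 13.3, 11.7 and 12.1 CPM against 6.48, 6.95 and 5.77 CPM (log2 0.98, SE 0.12, adjusted p = 3.58e-07). *Myl9* was at 31.1, 26.7 and 27.5 CPM, the highest of all groups (log2 0.94, SE 0.079, adjusted p = 1.77e-09). *Actn1* was at 124.7, 124 and 121.3 CPM against 248.2, 248.5 and 248.7 CPM (log2 −0.97, SE 0.028, adjusted p = 1.3e-16), a level below that of every other library of the series. *Vcl* was at 215.9, 203.7 and 213.6 CPM, above every other library (log2 0.79, SE 0.032, adjusted p = 1.78e-14). It shares 2090 exonic bases with *Ap3m1* on the opposite strand. By median of the deposited TPM *Cnn1* (14.9 against 5.47), *Myl9* (57.7 against 25.8) and *Vcl* (71.6 against 32.1) differed more from set A than in the fits. *Actn1* differed less (68.3 against 111 TPM). Their place below the threshold thus refers to the fits on scaled counts. *Acta2* was at 2.27, 2.995 and 2.09 CPM and overlapped set A (log2 −0.72, SE 0.24, adjusted p = 0.0111). *Tagln* was at 37.5, 36.8 and 36.2 CPM against 39.1, 40.5 and 39.7 CPM, groups that did not overlap, but did not pass the test (log2 −0.07, SE 0.053, adjusted p = 0.206). By deposited TPM *Tagln* was higher, at 47.9 to 49.7 TPM against 38.4 to 40.3 TPM. *Srf* was higher by 0.25 (SE 0.052, adjusted p = 0.000227). Against set B *Cnn1* (1.01), *Myl9* (1.37) and *Acta2* (−1.45) passed the threshold, and 5 genes of the set were called, in a fit that called 7790 of all genes. Markers of other cells differed between the same groups. Median sums went from 1907 CPM in set A to 1060 CPM for pluripotency markers, from 2.33 to 15.7 CPM for primitive endoderm, from 11.1 to 21.2 CPM for cardiac and skeletal muscle and from 83.2 to 68.9 CPM for endothelium. Of 10 fibroblast markers 2 rose (*Cdh11*, 3.29, and *Col3a1*, 2.55) and 4 fell (*Thy1*, −3.42, *Dcn*, −2.49, *Col5a2*, −1.80, and *Col1a1*, −1.62). *Cdh11* passed the filter in no other comparison with set A, so that it was tested only through its level in the triple mutant. The part of these markers in the levels of the contractile genes was not tested.

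Against *Hp1α/βΔ/Δ* ESCs, which share the loss of *Hp1α* and *Hp1β*, the same cells had 5 of 10 genes called. The double mutant was a constitutive knockout line, whereas the triple mutant came from floxed cells collected after transfection of Cre. The loss of *Hp1γ*, its recency, the transfection and the cell line thus cannot be told apart in this comparison, for these genes and for the wider lists below. *Actg2*, tested only through its level in the triple mutant, rose by 2.67 (SE 0.59, adjusted p = 0.000619) and *Myl9* by 1.97 (SE 0.096, adjusted p = 1.44e-11) on the log2 scale. *Acta2* fell by 1.82 (SE 0.17, adjusted p = 6.6e-08), *Tpm2* fell by 1.63 (SE 0.071, adjusted p = 3.18e-12) and *Actn1* fell by 1.08 (SE 0.039, adjusted p = 3.52e-13). Here 25.4% of all genes were called higher and 16.0% lower. For *Acta2* the double mutant had 7.99 to 9.34 CPM and the triple mutant 2.09 to 2.995 CPM. *Srf* differed by 0.07 (SE 0.05, adjusted p = 0.189). Both comparisons share the libraries of the triple mutant. The fibroblast markers *Col1a1* (log2 −3.45), *Col1a2* (−2.22) and *Thy1* (−2.83) were among 5 of 10 that fell between these groups, while *Col3a1* (3.20), *Cdh11* (2.92) and *Fbn1* (1.99) rose, and their part in the fall of *Acta2* was not tested. *Cdh11* was again tested only through its level in the triple mutant.

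**Figure D4:**
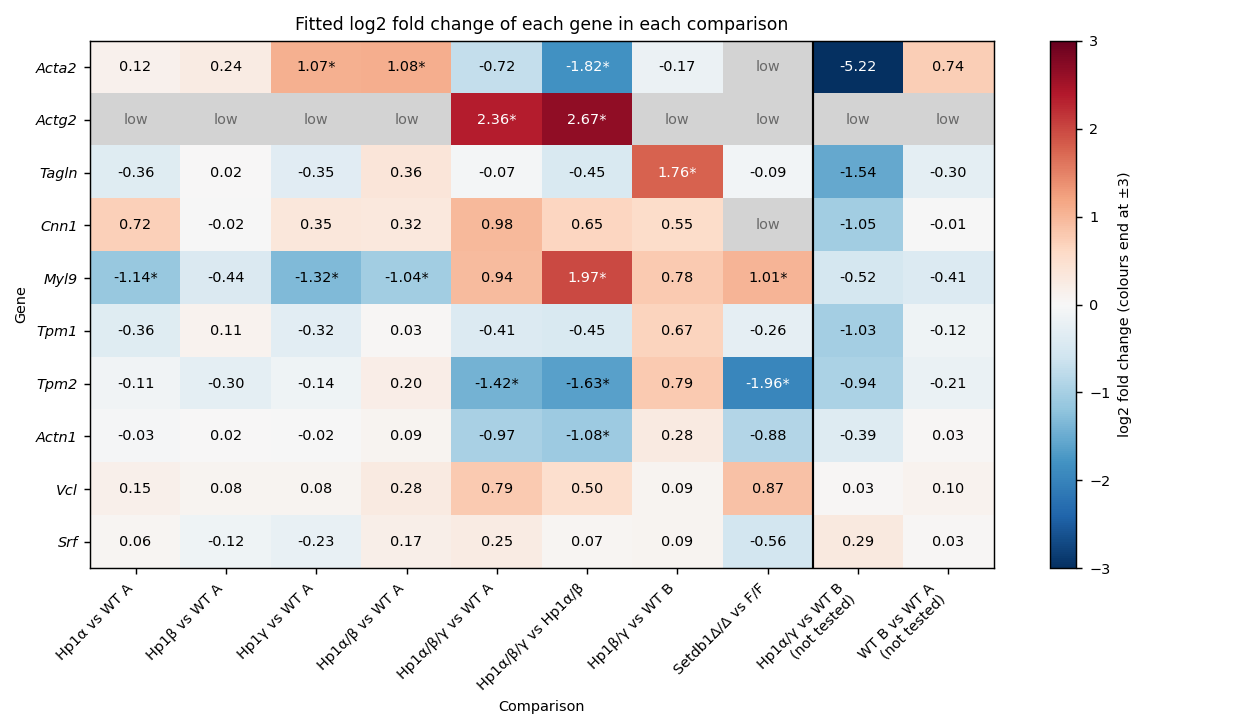
Fitted log2 fold change of the 10 genes (rows) in 10 comparisons (columns), red for higher and blue for lower, with colours that end at −3 and 3. An asterisk marks genes called in a tested comparison, grey cells marked low are genes that did not pass the filter on counts, and the columns right of the black line were not tested. *Actg2* (2.36 and 2.67) and *Tpm2* (−1.42 and −1.63) are called in both comparisons of *Hp1α/β/γΔ/Δ* cells, and *Srf* is called in none. Both comparisons share the libraries of the triple mutant, and *Actg2* was tested only through its level there.

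The *Setdb1* pair started from another state. In *Setdb1F/F* ESCs *Tagln* was at 0.650, 0.565 and 0.590 CPM, *Cnn1* at 0.295 to 0.400, *Myl9* at 0.236 to 0.400 and *Actg2* at 0 in all 6 libraries of the pair, while *Actn1* was at 305.3 to 318.6 CPM. The smooth muscle genes thus stood near the limit of detection before the deletion. *Tpm2* fell in *Setdb1Δ/Δ* cells, from 11.3, 12.4 and 14.6 CPM to 2.71, 3.74 and 3.21 CPM (log2 −1.96, SE 0.14, adjusted p = 5.09e-10). *Actn1* was lower at 162.9 to 173.6 CPM (log2 −0.88, SE 0.028, adjusted p = 6.88e-15), *Srf* at 18.8 to 22.6 against 29.2 to 33.4 CPM (log2 −0.56, SE 0.073, adjusted p = 2.18e-06) and *Tpm1* at 39.4 to 42.3 against 47.1 to 50.2 CPM (log2 −0.26), all below the fold threshold. By deposited TPM *Srf* overlapped between the groups (13.4 to 15.4 against 13.5 to 16.9 TPM) and *Tpm1* was higher (46.1 to 50.8 against 39.5 to 42.3 TPM). *Vcl* was higher at 181.9 to 184 CPM against 99.3 to 103.5 CPM (log2 0.87, SE 0.029, adjusted p = 1.22e-14). By median of the deposited TPM *Vcl* differed more than in the fit (64.4 against 25.3 TPM) and *Actn1* less (101 against 133 TPM). *Myl9* rose from 8, 5 and 4 counts to 12, 14 and 13 counts (log2 1.01, SE 0.41, adjusted p = 0.0306), a call that rests on few counts and was lost in 8 of 11 alternatives, with adjusted p up to 0.144. No *Setdb1F/F* library reached 10 counts of *Myl9*, so that it was tested only through the group in which it was high. Without the call of *Myl9* 1 of 7 tested genes was called, and among all genes 18.5% were called higher and 11.4% lower. Median sums went from 4019 CPM in *Setdb1F/F* to 3252 CPM for pluripotency markers, from 17.7 to 8.08 CPM for primitive endoderm, from 1.83 to 4.62 CPM for muscle and from 55.9 to 117.7 CPM for endothelium. Of 4 fibroblast markers tested *Thy1* (log2 −2.73) and *Col1a1* (−1.12) fell. Their part in the levels of the contractile genes was not tested.

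*Hp1α/β/γΔ/Δ* and *Setdb1Δ/Δ* cells, which have separate controls, can be set side by side. *Tpm2* (−1.42 and −1.96), *Actn1* (−0.97 and −0.88) and *Vcl* (0.79 and 0.87) had log2 fold changes of the same sign and like size in both. *Srf* had opposite signs (0.25 and −0.56), and both changes had an adjusted p under 0.05. In the deposited TPM its median was 31.7 in set A and 60.2 in *Hp1α/β/γΔ/Δ* cells. It was 15.8 TPM in *Setdb1F/F* and 15.4 TPM in *Setdb1Δ/Δ*, where the libraries overlapped, so the opposite signs were not seen in TPM. The difference between the comparisons was not tested.

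The abundant cytoplasmic actins were followed as a reference for the pathway. *Actb* (β-actin) and *Actg1* (γ-actin) were called in no comparison. In *Hp1α/β/γΔ/Δ* cells *Actb* was at 999.9 against 1974 CPM (log2 −0.95, SE 0.021, adjusted p = 2.69e-18) and *Actg1* at 2189 against 3441 CPM (log2 −0.62, SE 0.017, adjusted p = 7.02e-17). In *Setdb1Δ/Δ* cells they were at 906.5 against 1568 CPM (log2 −0.77) and 1125 against 2138 CPM (log2 −0.91). In the single and double mutants that were tested *Actb* lay between −0.19 and 0.34 and *Actg1* between −0.06 and 0.17. In *Hp1α/γΔ/Δ* ESCs, without a test, they were higher (log2 0.29 and 0.33), opposite to *Acta2*.

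The cofactors of SRF are 6 genes, *Mrtfa*, *Mrtfb*, *Myocd*, *Elk1*, *Elk3* and *Elk4*. None was called in *Hp1αΔ/Δ*, *Hp1βΔ/Δ*, *Hp1γΔ/Δ* or *Hp1α/βΔ/Δ* ESCs. *Myocd* (myocardin, the muscle-specific cofactor) rose in *Hp1β/γΔ/Δ* ESCs, from 0.497 to 1.06 CPM (log2 1.09, adjusted p = 0.00969), and fell in *Hp1α/β/γΔ/Δ* cells, from 0.691 to 0.244 CPM (log2 −1.45, adjusted p = 0.01). *Elk1* fell in *Hp1α/β/γΔ/Δ* cells, from 35.9 to 12.8 CPM (log2 −1.46, adjusted p = 2.72e-13), and against *Hp1α/βΔ/Δ* ESCs (log2 −1.52). *Elk3* fell in *Setdb1Δ/Δ* cells (log2 −1.61, adjusted p = 8.18e-11). The median log2 fold change of the list was −0.95 in *Hp1α/β/γΔ/Δ* cells against set A, beside 0.04 over all genes. Against *Hp1α/βΔ/Δ* ESCs it was −0.41 with 1 of 5 tested called, beside 0.03 over all genes.

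Most immediate-early genes, the targets of SRF with ETS partners, rose in *Hp1α/β/γΔ/Δ* cells. Of 9 tested, 6 rose against set A and 0 fell (*Egr1*, *Egr2*, *Egr3*, *Fos*, *Fosb* and *Junb*), with a median log2 fold change of 1.83 beside 0.04 over all genes, of which 25.1% were called higher. *Ier2* (log2 0.65), *Dusp1* (0.30) and *Mcl1* (−0.60) were not called, and the summed level of the list was 609.4 against 577.8 CPM by median. *Egr3* passed the filter in no other tested genotype. In both comparisons of the triple mutant it was thus tested only through the group in which it was high. The 6 called and the 9 tested against set A include it. *Egr2* went from 0.616 to 6.60 CPM (log2 3.46, SE 0.27, adjusted p = 6.09e-10) and *Fosb* from 0.849 to 7.98 CPM (log2 3.26, SE 0.21, adjusted p = 2.36e-11). Against *Hp1α/βΔ/Δ* ESCs 5 rose and 1 fell, with *Egr2* at a log2 fold change of 4.29, *Fosb* at 3.24 and *Mcl1*, which fell, at −1.0, where 25.4% of all genes rose and 16.0% fell. *Setdb1Δ/Δ* cells had 3 of 7 called higher (*Egr1* at 2.48, *Fosb* at 1.73 and *Fos*) and 1 lower (*Dusp1*, −1.15), beside 18.5% and 11.4% of all genes. *Egr1*, a zinc-finger transcription factor, was the only one called in a single mutant, in *Hp1γΔ/Δ* ESCs (log2 1.08, adjusted p = 1.05e-11). The genes of this paragraph and the next beyond the largest changes were named after their values were seen, because the counts are small.

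Of 30 further cytoskeletal targets of SRF, 27 to 29 passed the filter in a comparison. In *Hp1β/γΔ/Δ* ESCs 5 of 29 rose (*Ccn1*, *Acta1*, *Tgfb1i1*, *Ccn2* and *Des*) and 1 fell (*Ldb3*, log2 −1.77), where 7.32% of all genes rose and 4.54% fell, and the median of the list was 0.29 beside 0 over all genes. *Ccn1*, a matricellular protein, was at 112.8 against 33.7 CPM (log2 1.75, SE 0.051, adjusted p = 4.17e-13) and *Acta1*, skeletal α-actin, at 9.66 against 3.66 CPM (log2 1.40, SE 0.14, adjusted p = 9.33e-07). In *Hp1α/β/γΔ/Δ* cells 6 rose and 3 fell against set A, with a median of −0.26, where 25.1% of all genes rose and 17.1% fell. Against *Hp1α/βΔ/Δ* ESCs 4 rose and 3 fell, where 25.4% and 16.0% did. *Myh11*, smooth muscle myosin (log2 2.36 and 2.31), and *Csrp1* (1.86 and 1.64) rose in both, and *Lpp* rose by 1.17 and 1.82. In the first of these the 3 that fell were *Flna* (filamin A), *Myh9* (nonmuscle myosin IIA) and *Filip1l*, and in the second they were *Filip1l* (log2 −1.68), *Myh9* (−1.22) and *Acta1* (−1.19). In *Setdb1Δ/Δ* cells 5 of 27 rose and 6 fell, where 18.5% of all genes rose and 11.4% fell, with *Mylk* (myosin light chain kinase, log2 4.0, 0.424 to 6.77 CPM) and *Ccn1* (log2 3.17) at one end and *Fhl1* (log2 −2.31) and *Des* (desmin, log2 −2.10) at the other.

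The single mutants and *Hp1α/βΔ/Δ* ESCs had few calls in this list. *Lmod1*, leiomodin of smooth muscle, fell in *Hp1αΔ/Δ* (log2 −1.21), *Hp1βΔ/Δ* (−1.17) and *Hp1γΔ/Δ* ESCs (−1.35), each against the same set A and with 0.673 to 1.74 CPM. *Lpp* fell in *Hp1γΔ/Δ* ESCs (log2 −1.12). In *Hp1βΔ/Δ* ESCs *Acta1* (log2 1.49) and *Myh11* (1.42) rose and *Ldb3* fell (−1.41). In *Hp1α/βΔ/Δ* ESCs *Acta1* rose by 2.27 on the log2 scale (6.29 against 1.3 CPM, adjusted p = 6.33e-08) and *Synpo2* fell (log2 −1.13). *Acta1* differed between the wild-type sets as well (3.66 against 1.3 CPM, log2 1.5), and in *Hp1α/γΔ/Δ* ESCs it was at 0.12 CPM (log2 −4.94 against set B, no test). In those ESCs 11 of 29 were lower and 2 higher by a log2 fold change over 1, where 17.2% of all genes were lower and 7.56% higher in this contrast that chose the set.

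**Figure D5:**
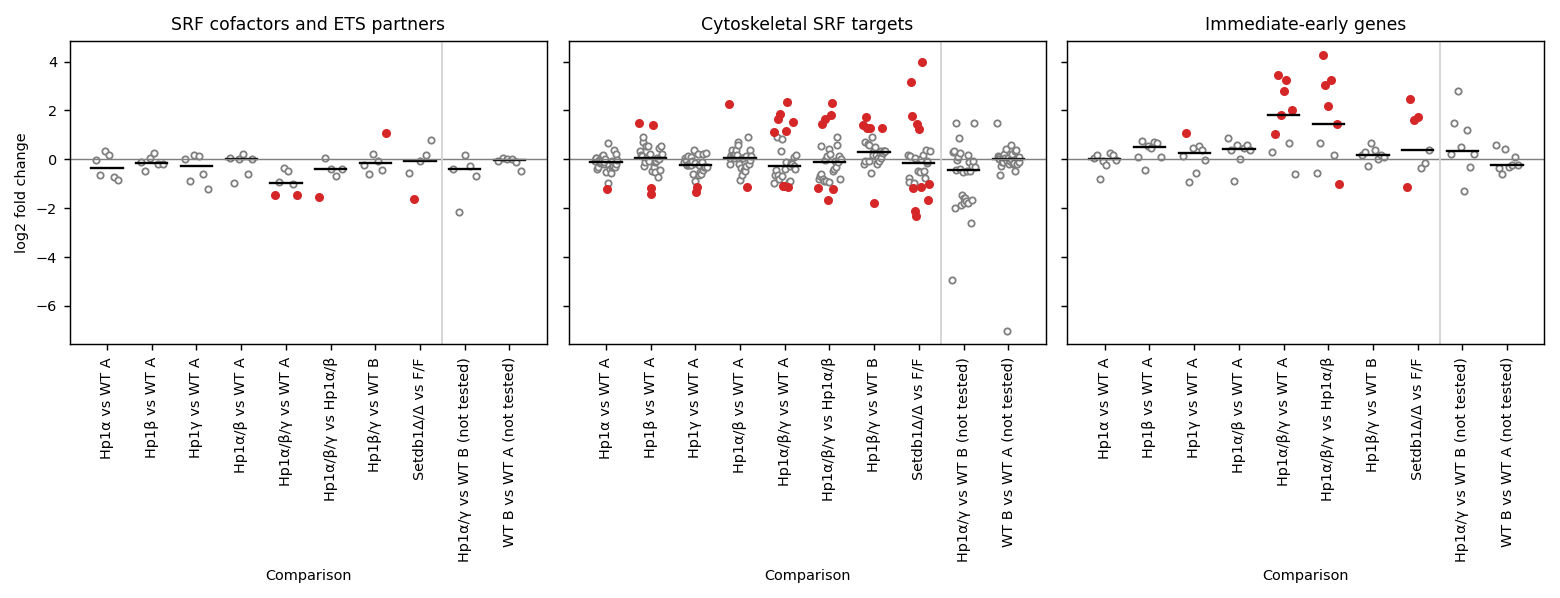
Fitted log2 fold changes of the SRF cofactors (left), further cytoskeletal targets (middle) and immediate-early genes (right) in 10 comparisons, with each gene as a circle (filled red where called), and the list's median as a black line. The last 2 comparisons were not tested. The median of the immediate-early genes is 1.83 and 1.44 in both comparisons of *Hp1α/β/γΔ/Δ* cells, and that of the cytoskeletal targets −0.26 and −0.11.

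The genes whose group means most resembled those of *Acta2*, *Tagln* and *Srf* were sought among 13525 genes with at least 5 CPM in a group, by Pearson's correlation of log2(CPM + 1) over the 11 groups. *Acta2* was most like *Igf2* (0.966), *Col1a2* (0.958) and *Kif5c* (0.957). *Tagln* was most like *Tpm1* (0.988), another gene of the set, then *Kbtbd2* (0.982) and *Cdcp1* (0.976). *Srf* was most like *Dph1* (0.971), *Trappc5* (0.968) and *Ap1m2* (0.962). The *Setdb1* groups lie at the low end for all 3 genes and these correlations are given without a test. The 11 groups include *Hp1α/γΔ/Δ* ESCs, whose low *Acta2* chose the set.

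Over the order of the groups, *Srf* had one of the narrower ranges. Its median CPM in the highest group was 2.98 times that in the lowest, beside 2.11 times for *Vcl*, 2.54 times for *Actn1*, 8.44 times for *Tpm1*, 19.7 times for *Tpm2*, 30.7 times for *Cnn1*, 97.4 times for *Myl9* and 271 times for *Tagln*, with the lowest group a *Setdb1* group for all of these but *Actn1*. In TMM-scaled CPM *Srf* was highest in *Hp1α/γΔ/Δ* ESCs (61.1 to 82.7 CPM). Neighbours overlapped from there down to *Hp1γΔ/Δ* ESCs (44.2 to 47.6 CPM), with only the *Setdb1* groups apart from the rest and from each other. The order was not the same in the deposited TPM. There the highest median of *Srf* was 60.2 TPM in *Hp1α/β/γΔ/Δ* cells, and *Hp1α/γΔ/Δ* ESCs had 24.8 TPM.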

How the data were processed

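Total RNA was sequenced from ESCs of 11 groups with 3 biological replicates each. The deposited tables hold expected counts and TPM per gene, which the authors estimated with RSEM after alignment with TopHat2 2.1.1 to GRCm38.p5, per the submitters' processing notes. The deposited TPM are scaled per length and library. The labels name a TruSeq RNA kit and the methods a stranded total RNA kit, and whether counting used strand is not given in the sources used here. Columns of the authors' own fold changes and p-values were not used. Expected counts were rounded and 55487 genes in 33 libraries were kept, whose totals of 17330936 to 25743149 limit precision for genes of few counts.

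Genes were tested with edgeR 4.0.16 (R 4.3.3, limma 3.58.1), as the quasi-likelihood test with TMM scaling, filterByExpr at a minimum count of 10 and Benjamini-Hochberg adjustment over all genes tested. Only the groups of a comparison entered its fit. A gene was called where its adjusted p was under 0.05 and its log2 fold change passed 1 in either direction. The script was tested on simulated data. Alternatives were DESeq2 1.42.0, RLE scaling, other filters, no fold threshold, the other wild-type set, a replicate block and leaving out each library. Likeness of genes used log2(CPM + 1).

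The members and lists were chosen with earlier results of these data known. Named were all 10 members, the deleted genes, *Actb* and *Actg1*, 6 fibroblast markers and the 3 genes most like *Acta2*, *Tagln* and *Srf*. Per wider list, direction and comparison, at most 2 called genes with the largest changes were named by rule. Further genes of these lists and further fibroblast markers were named after their values were seen. Promoters came from RefSeq (GRCm38.p6) and gene positions from GENCODE M21.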

Additional observations from a re-analysis of the deposited data

How the results depend on the processing

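The number of genes of the set called in each comparison depended most on the fold threshold and on the wild-type set. With the adjusted p alone it went from 1 to 5 in *Hp1αΔ/Δ*, from 0 to 2 in *Hp1βΔ/Δ*, from 2 to 6 in *Hp1γΔ/Δ*, from 2 to 6 in *Hp1α/βΔ/Δ* and from 1 to 6 in *Hp1β/γΔ/Δ* ESCs, from 2 to 9 in *Hp1α/β/γΔ/Δ* cells against set A, from 5 to 9 against *Hp1α/βΔ/Δ* ESCs, and from 2 to 6 in *Setdb1Δ/Δ* cells. In the same order, 45%, 51.1%, 46.7%, 43.4%, 51.7%, 81.6%, 80.6% and 78.9% of all genes passed the adjusted p alone. With the other wild-type set the number called in the set was 0 in *Hp1αΔ/Δ*, 0 in *Hp1γΔ/Δ*, 0 in *Hp1α/βΔ/Δ* and 5 in *Hp1α/β/γΔ/Δ* cells. In the last of these fits 7790 of all genes were called. With at least 10 counts asked of every library the number called in the set was 3 in *Hp1α/β/γΔ/Δ* cells against *Hp1α/βΔ/Δ* ESCs, where *Actg2* was no longer tested and *Actn1* was at −0.97, and 1 in *Setdb1Δ/Δ* cells. The latter was 1 also with DESeq2, with a filter at 1 count and with the replicate block. Leaving out a library gave 1 to 2 in *Hp1γΔ/Δ* (1 without set A replicate 3), 1 to 2 in *Hp1α/βΔ/Δ* (1 without its replicate 1 or set A replicate 3), 2 to 3 in *Hp1α/β/γΔ/Δ* cells against set A and 1 to 2 in *Setdb1Δ/Δ* cells, where the call of *Myl9* was lost without any library but *Setdb1F/F* replicate 1. Same-numbered replicates did not deviate together (correlations of −0.061 to 0.186), and the replicate block changed no other count of the set. Immediate-early genes called between *Hp1α/β/γΔ/Δ* and *Hp1α/βΔ/Δ* cells went from 6 to 3 with at least 10 counts in every library, as fewer genes were tested.

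Values that changed sign belonged to genes that were not called. With the other wild-type set these were *Acta2* (−0.60) and *Tpm2* (0.12) in *Hp1αΔ/Δ*, *Acta2* (−0.49), *Cnn1* (0.0015), *Actn1* (−0.0015) and *Vcl* (−0.0060) in *Hp1βΔ/Δ*, *Tpm2* (0.088) and *Vcl* (−0.0010) in *Hp1γΔ/Δ*, *Acta2* (0.57) in *Hp1β/γΔ/Δ* ESCs and *Tagln* (0.24) in *Hp1α/β/γΔ/Δ* cells. In *Hp1βΔ/Δ* ESCs *Cnn1* was 0.0058 with RLE scaling and 0.0097 with DESeq2, and 0.11 without replicate 2 or 0.050 without set A replicate 2, in a range of −0.12 to 0.11 over the left-out libraries, while *Tagln* was −0.026 without replicate 1. *Acta2* in *Hp1αΔ/Δ* ESCs was −0.071 without set A replicate 3, in a range of −0.071 to 0.38 over the left-out libraries. *Tagln* was 0.023 in *Hp1α/β/γΔ/Δ* cells under the filter on every library, and 0.096 and 0.13 in *Setdb1Δ/Δ* cells without replicate 1 and replicate 2. By median of the deposited TPM, which are scaled without TMM, further signs differed from the fits. These included *Tpm1* and *Tagln* in *Hp1α/β/γΔ/Δ* cells, *Tpm1* in *Setdb1Δ/Δ* cells and *Srf* in *Hp1α/γΔ/Δ* ESCs. The cause was not tested.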
